A study of Mus musculus with 19 samples.

Results

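The glutathione peroxidases measured here were Gpx1, Gpx2, Gpx3, Gpx4, Gpx7 and Gpx8, 6 genes of the 11728 tested in mouse prostate. They were taken by symbol, as probe sets that the array's annotation assigns to exactly 1 of these genes, which gave 7 probe sets among 45101. The probe set with the highest mean over the arrays stood for its gene, and only Gpx4 had a choice to make. Gpx3 was chosen by its lower level on the high fat diet in these arrays, which the series title names, and the other 5 as its relatives. Total RNA came from C57BL/6J mice (Taconic) that entered the study at 8 weeks of age and then ate 1 of 2 diets freely for 12 weeks, with 5 mice on each diet. The groups were the dorsolateral prostate (DLP) on a high fat diet (HFD, 4 arrays), the DLP on the control diet (5 arrays), the ventral prostate (VP) on HFD (5 arrays) and the VP on the control diet (5 arrays). The labels name neither the fat content of the diets nor the mouse behind each array. Every p-value below thus measures the spread between these 19 arrays, which may be partly technical. With 5 mice on each diet, some arrays of a diet must come from the same mouse. The main fit took the 19 arrays as separate, so its lobe contrasts leave out any pairing within a mouse. All mice were of 1 strain, and the labels name no altered allele. Each array held whole lobe tissue, in which fewer cells of a type and less RNA per cell cannot be told apart.

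Glutathione peroxidases reduce hydrogen peroxide and organic or lipid hydroperoxides, and most draw the electrons from glutathione, which glutathione reductase then regenerates with NADPH. Gpx1, Gpx2, Gpx3 and Gpx4 carry selenocysteine in the active site, so their synthesis needs selenium and a dedicated insertion machinery, while Gpx7 and Gpx8 carry cysteine and sit in the endoplasmic reticulum. Gpx1 is cytosolic and mitochondrial, Gpx2 is best known from the gut epithelium, Gpx3 is secreted and is the main plasma form, made largely by the kidney, and Gpx4 reduces phospholipid hydroperoxides in membranes and restrains ferroptosis.

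The promoters of Gpx3 and Gpx8 are shown because these genes had the largest diet and lobe differences of the family. Each window runs from 250 bases before to 50 bases after a start position of the RefSeq-derived promoter table on GRCm38.p6, 5′ to 3′ on the gene's strand, and capitals mark matches to a GC box (GGGCGG) or a CCAAT box (CCAAT) on either strand. The Gpx3 window is chr11:54902604-54902903 on the plus strand, and the Gpx8 window is chr13:113046339-113046638 on the minus strand. The start used is the outer end of the gene for Gpx3 and lies 42 bases inside it for Gpx8.
Gpx3: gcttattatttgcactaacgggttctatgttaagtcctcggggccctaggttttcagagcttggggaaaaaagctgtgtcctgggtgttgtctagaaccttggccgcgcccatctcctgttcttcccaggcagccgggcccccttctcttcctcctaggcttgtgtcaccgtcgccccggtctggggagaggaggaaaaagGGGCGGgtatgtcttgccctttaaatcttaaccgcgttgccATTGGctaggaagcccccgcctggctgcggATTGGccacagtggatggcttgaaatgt
Gpx8: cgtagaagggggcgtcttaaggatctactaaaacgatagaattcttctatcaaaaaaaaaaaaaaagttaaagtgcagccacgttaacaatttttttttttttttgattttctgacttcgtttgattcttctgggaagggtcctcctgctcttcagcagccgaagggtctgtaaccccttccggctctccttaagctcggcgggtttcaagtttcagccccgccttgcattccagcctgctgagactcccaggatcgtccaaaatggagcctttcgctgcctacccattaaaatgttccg
The Gpx3 window held 1 GC box, which starts 49 bases before the start position, and 2 CCAAT boxes on the opposite strand, of which 1 starts 8 bases before it. The Gpx8 window held no match to either motif, and its GC content was 45.3%, against 56.3% in the Gpx3 window. Of the 32851 promoter windows in the RefSeq table, 35.7% held a GC box and 37.4% a CCAAT box. The core of the antioxidant response element (TGACNNNGC), searched on both strands, was in none of the windows of the 6 genes, which says only that these letters are not there, and in 12.4% of all windows.

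Levels are given as log2 of the deposited array value, and a difference of 1 is a doubling if the deposited logarithm has base 10, which was inferred. All 19 arrays held the same set of sorted values with a median of 1.85 on this scale, so a level reflects the rank of a probe set on its array and a shift shared by most genes would not show. Prostate epithelial markers were high on all arrays, with Epcam from 8.45 to 9.28, Krt8 from 8.06 to 8.99 and Foxa1 from 8.30 to 9.69. The secretory gene Pbsn lay between 12.4 and 12.7 in DLP, but between 7.40 and 12.0 in VP. A fit without control VP 4 and HFD VP 3 is given where it changes a call. Every member passed the filter on low values, which asked for a level above the array median on at least 4 arrays. Gpx7 passed it with 14 arrays above the median and the other 5 genes with all 19. Gpx5, known from the epididymis, and Gpx6, known from the olfactory epithelium, are relatives outside the set, and both lay below the median on every array.

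Gpx3 was lower in HFD than in control arrays of either lobe, with no overlap between the diets. In DLP its levels were 5.89, 5.69, 5.58 and 5.90 on HFD, against 7.16, 6.60, 7.55, 7.14 and 8.28 on the control diet. In VP they were 5.41, 6.15, 6.34, 5.18 and 5.96 on HFD, against 6.74, 6.61, 6.97, 7.53 and 6.90 on the control diet. The highest HFD array and the lowest control array were 5.90 and 6.60 in DLP, and 6.34 and 6.61 in VP, so the diets lay closer to touching in VP. Because the gene was chosen for this pattern, the diet differences of Gpx3 are descriptions without a test. The difference was -1.58 ± 0.27 (SE) in DLP, or 2.99-fold lower, and -1.14 ± 0.25 (SE) in VP, or 2.21-fold lower. Among the 11728 genes, ordered from the most negative diet difference, Gpx3 stood at place 3 in DLP and at place 8 in VP. Groups that do not overlap, with the HFD arrays lower, were found for 1.13% of all genes in DLP and 1.19% in VP.

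**Figure D1:**
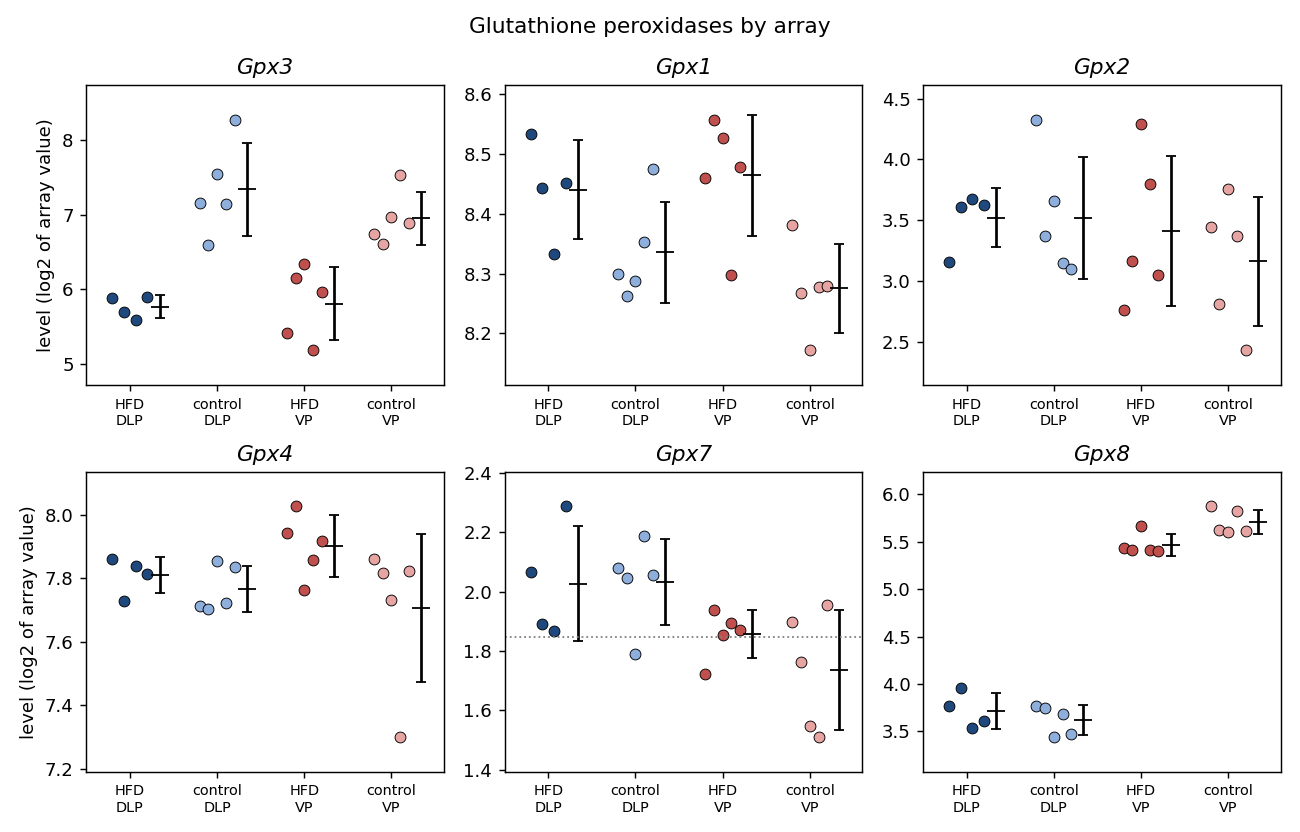
Levels of the 6 glutathione peroxidases on each array (log2 of the array value, a separate axis range per gene), by group; bars are the mean and SD of each group's 4 or 5 arrays, and the dotted line is the array median of 1.85 where it falls in range. Gpx3 on HFD stays at or below 6.34 and on the control diet at or above 6.60, Gpx8 separates by lobe, and the Gpx1 axis spans less than 1 log2 unit.

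The arrays of the control diet varied more in DLP than those of HFD. Gpx3 averaged 5.76 ± 0.16 (SD, n = 4) in HFD DLP and 7.34 ± 0.62 (SD, n = 5) in control DLP, and control DLP alone spanned 1.68 from its lowest to its highest array. It averaged 5.81 ± 0.49 (SD, n = 5) in HFD VP and 6.95 ± 0.35 (SD, n = 5) in control VP. The order of the group means was thus control DLP, control VP, HFD VP and HFD DLP. Within a diet the neighbours in this order did not pass the test: DLP minus VP was -0.04 ± 0.27 (SE) on HFD, with limma's adjusted p = 0.91 and a 95% interval from -0.61 to 0.52. On the control diet it was 0.39 ± 0.25 (SE), with limma's adjusted p = 0.20 and an interval from -0.14 to 0.92. With each array left out in turn, the diet difference of Gpx3 ran from -1.77 to -1.35 in DLP and from -1.28 to -0.99 in VP.

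Adipose tissue also makes Gpx3, so markers of fat cells are given beside it. Of the 10 markers listed, 8 were measured and 3 passed the filter, while Cidec, Lep, Retn and Pck1 lay below the array median on every array. The summed linear level of the 8 ran from 30.7 to 34.7 in HFD DLP and from 25.9 to 54.0 in control DLP, and from 31.9 to 42.2 in HFD VP and from 41.9 to 66.0 in control VP. Adipoq, the adipocyte hormone, ranged from 0.92 to 1.24 in HFD DLP and from 0.97 to 1.81 in control DLP, and from 0.91 to 1.24 in HFD VP and from 1.03 to 1.91 in control VP. Car3, a carbonic anhydrase abundant in fat and muscle, lay between 1.46 and 1.99 in HFD VP and between 2.21 and 3.79 in control VP, while in DLP its ranges overlapped, from 1.34 to 2.18 on HFD and from 2.01 to 4.05 on the control diet. Fabp4 and Lipe, which passed the filter with Car3, did not separate the diets: Fabp4 averaged 4.27 ± 0.16 (SD, n = 4) in HFD DLP and 4.26 ± 0.42 (SD, n = 5) in control DLP, and 4.81 ± 0.18 (SD, n = 5) in HFD VP and 5.04 ± 0.22 (SD, n = 5) in control VP. Lipe, hormone-sensitive lipase, averaged 2.96 ± 0.24 (SD, n = 4) in HFD DLP and 2.98 ± 0.17 (SD, n = 5) in control DLP, and 2.47 ± 0.11 (SD, n = 5) in HFD VP and 2.59 ± 0.12 (SD, n = 5) in control VP. Over the 8 measured markers, the HFD mean was the lower one for 4 in DLP and 6 in VP, and only Car3 in VP had no overlap. Among smooth muscle markers the HFD mean was the higher one for all 8 in both lobes. Their summed linear level ran from 2755 to 2998 in HFD DLP, against 2364 to 2690 in control DLP. In DLP the HFD mean was also lower for 5 of 5 nerve, 5 of 5 macrophage and 6 of 7 fibroblast markers. It was higher there for 6 of 6 seminal vesicle and 7 of 8 luminal epithelial markers. In VP these counts were 1, 3 and 4 lower, and 5 and 4 higher. The remaining lists held both directions in each lobe. Summed nerve markers ran from 17.6 to 28.4 in HFD DLP and from 15.2 to 164 in control DLP. The part of any marker list in the Gpx3 difference was not tested. The array with the highest Gpx3 level was also the one with the highest Car3 and Adipoq levels in control VP, which was control VP 4, but not in control DLP, where Gpx3 was highest on control DLP 5 and both of the others on control DLP 4. Within the groups, the summed fat markers and Gpx3 had a Pearson r of 0.27 and a Spearman rho of 0.35 over 19 arrays, as a description. Fabp4 had the highest level of the 8 on every array, so it weighs most in this sum.

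Gpx1, Gpx2, Gpx4, Gpx7 and Gpx8 did not pass limma's test by diet over all genes. In VP 0 of these 5 genes passed, against 1.11% of all genes tested, with adjusted p-values from 0.15 to 0.73. Limma's unadjusted p in VP was 0.0074 for Gpx1, 0.035 for Gpx4 and 0.016 for Gpx8, where 1786 of 11728 genes were under 0.05. It was 0.39 for Gpx2 and 0.29 for Gpx7. In DLP 0 of 5 passed, against 0% of all genes, with adjusted p-values from 0.96 to 1.00 and with 662 of 11728 genes at an unadjusted p under 0.05. Their differences in VP had a median of 0.19, with 4 positive and 1 negative, beside a median of 0.01 over all genes. In DLP the median was 0.04, with 3 positive, beside 0.01 over all genes.

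Gpx1, the cytosolic enzyme that removes hydrogen peroxide, had narrow ranges. In VP it was at 8.46, 8.56, 8.53, 8.30 and 8.48 on HFD, and at 8.38, 8.27, 8.17, 8.28 and 8.28 on the control diet. Of the HFD arrays, 4 lay above every control array and HFD VP 4 lay among them. The difference was 0.19 ± 0.06 (SE), with limma's adjusted p = 0.15 and a 95% interval from 0.06 to 0.32. In DLP Gpx1 averaged 8.44 ± 0.08 (SD, n = 4) on HFD and 8.34 ± 0.08 (SD, n = 5) on the control diet. That difference was 0.10 ± 0.07 (SE), with limma's adjusted p = 0.96. Red cells carry much Gpx1, and of the 6 erythroid markers 3 were measured, with Hba-a1 below the median on every array. Their summed linear level ran from 4.79 to 16.8 in HFD VP and from 3.81 to 16.3 in control VP, so the ranges overlapped.

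Gpx4, the phospholipid hydroperoxidase, differed little by diet. In VP its levels were 7.94, 8.03, 7.76, 7.86 and 7.92 on HFD, against 7.86, 7.82, 7.73, 7.30 and 7.82 on the control diet. The groups overlapped, and control VP 4 lay apart from the other 4 control arrays. The difference was 0.20 ± 0.09 (SE), with limma's adjusted p = 0.29, and without control VP 4 it was 0.09. In DLP Gpx4 averaged 7.81 ± 0.06 (SD, n = 4) on HFD and 7.76 ± 0.07 (SD, n = 5) on the control diet, a difference of 0.04 ± 0.09 (SE) with limma's adjusted p = 1.00.

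A second probe set assigned to Gpx4 did not follow the main one. Its suffix, x, marks probes that can also match other transcripts, and the RefSeq gene table lists Gpx4 pseudogenes, named Gpx4-ps1 and Gpx4-ps2. In HFD DLP it was at 7.22, 6.83, 7.04 and 7.16, and in HFD VP at 6.66, 5.77, 7.03, 6.06 and 6.71. In control DLP it was at 6.46, 6.91, 6.95, 6.85 and 6.99, and in control VP at 5.81, 6.25, 6.79, 6.39 and 6.75. The DLP arrays lay mostly above the VP arrays, with overlap. The lobe difference of this probe set was 0.62 on HFD and 0.44 on the control diet, with two-sided exact permutation p-values of 0.032 and 0.056, or 0.19 for each after Benjamini-Hochberg adjustment over the 8 tests run on both probe sets. The main probe set gave lobe differences of -0.09 and 0.06. Within groups the probe sets had a Pearson r of -0.17 and a Spearman rho of -0.08 over 19 arrays.

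**Figure D2:**
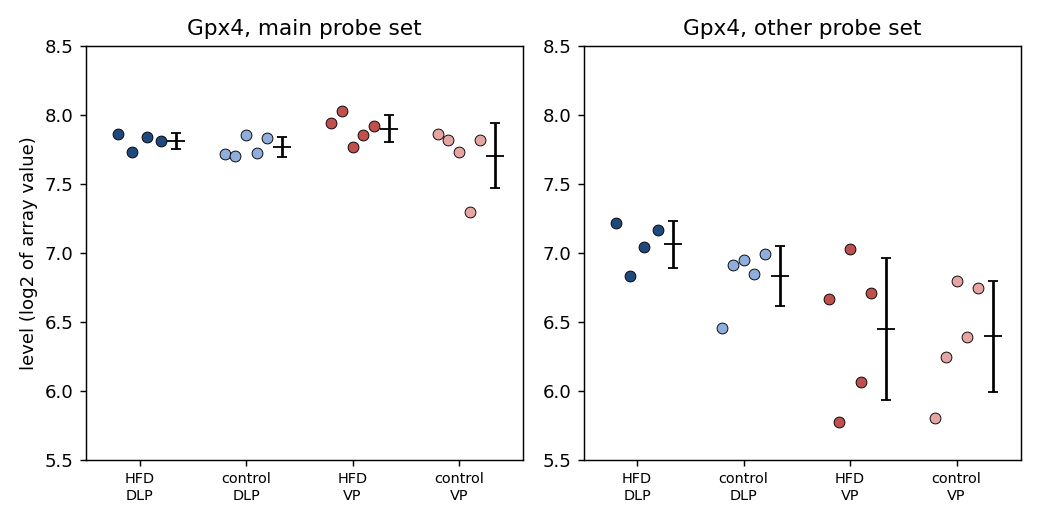
Levels of the main probe set of Gpx4 (left) and of its other probe set (right) on each array, in log2 of the array value, by group; bars are the mean and SD of 4 or 5 arrays. The main probe set lies between 7.30 and 8.03 in every group, and the other one spans 5.77 to 7.22.

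Gpx2, the epithelial form, had wide ranges within its groups. In VP it was at 2.76, 3.17, 4.29, 3.80 and 3.04 on HFD, against 3.44, 2.81, 3.75, 3.37 and 2.43 on the control diet. In DLP it was at 3.16, 3.61, 3.68 and 3.63 on HFD, against 4.33, 3.37, 3.66, 3.15 and 3.10 on the control diet. The diets overlapped in each lobe. The difference was 0.25 ± 0.28 (SE) in VP and 0.00 ± 0.30 (SE) in DLP, with limma's adjusted p = 0.73 and 1.00. The 95% interval in VP ran from -0.34 to 0.84, so changes within that range are compatible with these values.

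Gpx8, a transmembrane protein of the endoplasmic reticulum, was the member that set the lobes apart. In DLP it was at 3.77, 3.96, 3.53 and 3.61 on HFD and at 3.77, 3.75, 3.44, 3.68 and 3.47 on the control diet. In VP it was at 5.44, 5.42, 5.67, 5.41 and 5.40 on HFD and at 5.87, 5.63, 5.61, 5.82 and 5.61 on the control diet. Every DLP array lay below every VP array. Gpx8 was lower in DLP by 2.09 ± 0.09 (SE) on the control diet, or 4.25-fold, with limma's adjusted p = 3.7e-13, and by 1.75 ± 0.10 (SE) on HFD, or 3.36-fold, with limma's adjusted p = 1.4e-11. These contrasts share no array. With an offset of 16 in the logarithm, which shrinks differences, the values were -1.30 and -1.07 and both were still called. Of all genes, 26.8% were called lower in DLP on the control diet and 26.1% on HFD, and groups that do not overlap, with DLP lower, were found for 19.1% and 21.5%.

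The diet difference of Gpx8 did not pass in either lobe. In VP, 4 of the 5 HFD arrays lay below every control array, HFD VP 3 being the exception, and the difference was -0.24 ± 0.09 (SE) with limma's adjusted p = 0.21. In DLP the difference was 0.10 ± 0.10 (SE) with limma's adjusted p = 1.00. The difference between those values was 0.34 ± 0.13 (SE), with limma's unadjusted p = 0.021 and adjusted p = 0.50. In that contrast 0 of the 5 members other than Gpx3 passed, against 0.00853% of all genes. Markers of other and of epithelial cells are given beside the lobe difference. Of 8 luminal epithelial markers, 4 were lower in DLP than in VP without overlap on both diets, as Gpx8 was, namely Cdh1, Epcam, Foxa1 and Hoxb13, and Pbsn was higher without overlap. Epcam lay between 8.52 and 8.69 in HFD DLP and between 9.05 and 9.28 in HFD VP, and between 8.45 and 8.53 in control DLP and between 8.89 and 9.10 in control VP. The summed linear level of 7 fibroblast markers was between 685 and 784 in HFD DLP and between 602 and 1136 in HFD VP, and between 676 and 990 in control DLP and between 638 and 1012 in control VP. That of 8 smooth muscle markers was between 2755 and 2998 in HFD DLP and between 1910 and 2680 in HFD VP, and between 2364 and 2690 in control DLP and between 1877 and 2390 in control VP. It was thus higher in the lobe where Gpx8 was lower on HFD, with overlap on the control diet. On both diets the DLP mean was lower for 5 of 5 macrophage markers, as for Gpx8, with Cd14 and Mrc1 not overlapping on HFD. It was higher on both diets for 5 of 5 nerve and 4 of 4 basal epithelial markers. No other list had all its means on the same side on both diets. Of the 7 fibroblast markers 3 were lower and 4 higher on each diet, and Lum was higher in DLP without overlap on both. The part of these cell types in the Gpx8 difference was not tested.

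Gpx7, the soluble enzyme of the same compartment, lay close to the array median and below it on 5 arrays. In DLP it was at 2.07, 1.89, 1.87 and 2.29 on HFD and at 2.08, 2.04, 1.79, 2.19 and 2.06 on the control diet. In VP it was at 1.72, 1.94, 1.85, 1.89 and 1.87 on HFD and at 1.90, 1.76, 1.55, 1.51 and 1.96 on the control diet. On the control diet 4 of the 5 DLP arrays lay above every VP array. Gpx7 was higher in DLP on the control diet by 0.30 ± 0.11 (SE), with limma's adjusted p = 0.029, while 28.2% of all genes were called higher there. On HFD the lobe difference was 0.17 ± 0.12 (SE) with limma's adjusted p = 0.23. The call on the control diet was lost without control VP 3, control VP 4, control DLP 1, control DLP 4 or control DLP 5, with differences from 0.24 to 0.29 and adjusted p-values from 0.050 to 0.080. It was also lost with array weights, cyclic loess, the control arrays fitted alone, or without both control VP 4 and HFD VP 3, with adjusted p-values up to 0.087. By diet Gpx7 differed by 0.12 ± 0.11 (SE) in VP and 0.00 ± 0.12 (SE) in DLP, with limma's adjusted p = 0.66 and 1.00.

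Across the lobes, 2 of the 6 members passed on the control diet, Gpx7 higher and Gpx8 lower in DLP, when 55% of all genes did. On HFD 1 of 6 passed, Gpx8, when 52.9% of all genes did. For Gpx1, Gpx2, Gpx3 and Gpx4 the lobe differences lay between -0.09 and 0.11 on HFD and between 0.06 and 0.39 on the control diet.

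**Figure D3:**
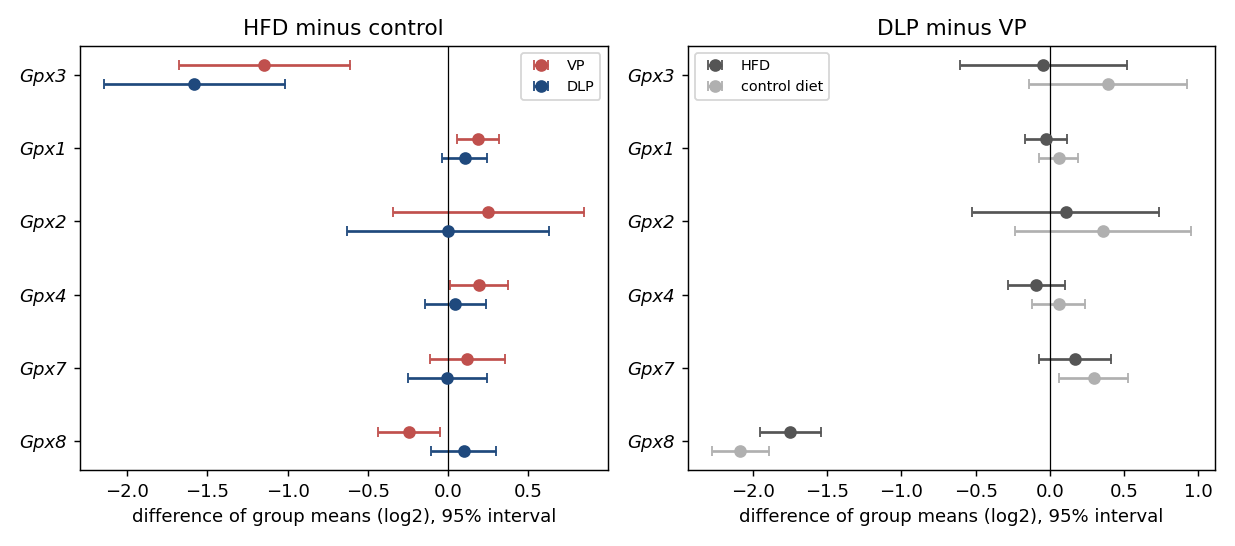
Differences of group means (log2) with 95% intervals from the fit, HFD minus control in each lobe (left) and DLP minus VP on each diet (right). Because Gpx3 was chosen for its lower level on HFD in these arrays, its intervals on the left are a description and not a test. Gpx3 is at -1.58 and -1.14 on the left with all other members between -0.24 and 0.25, and Gpx8 is at -1.75 and -2.09 on the right.

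The arrays of a group also differed among themselves, and of the pairs of members Gpx3 and Gpx1 had the highest Pearson r over all 19 arrays. After each group's mean was removed, their levels had a Pearson r of 0.62 and a Spearman rho of 0.49 over 19 arrays. Without control DLP 5 and control DLP 2, the arrays farthest from their group mean in Gpx3, r was 0.47. Within 3 of the 4 groups the array lowest in Gpx3 was also the lowest in Gpx1, namely HFD DLP 3, control DLP 2 and HFD VP 4, while the highest array was shared in 1 of the 4. This was seen after the values had been examined. It is a description, because some arrays must come from the same mouse and deviations from a group mean are not independent. Over the values themselves, diets and lobes included, r between Gpx3 and Gpx1 was -0.32.

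**Figure D4:**
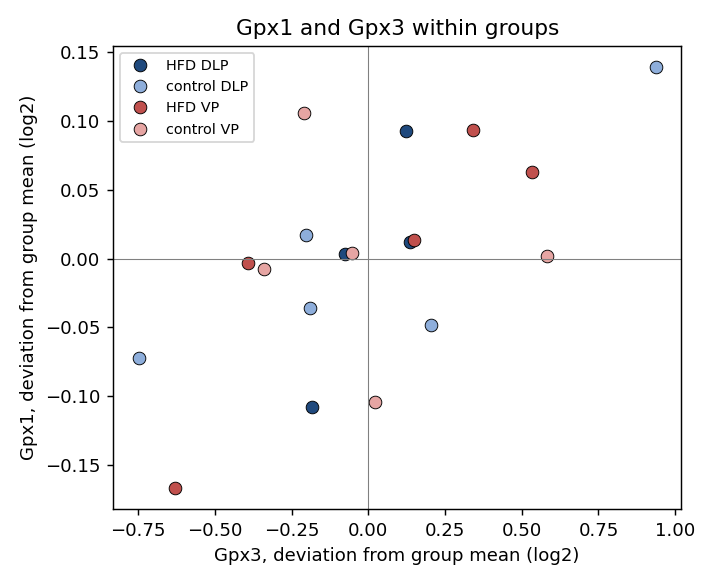
Deviation of each array from its group mean (log2) in Gpx3 (horizontal) and Gpx1 (vertical), coloured by group. The 19 arrays have a Pearson r of 0.62, and the vertical range is narrower than the horizontal one, with control DLP 5 at 0.94 in Gpx3 and HFD VP 4 lowest in Gpx1.

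With the other members Gpx3 had r of 0.05 for Gpx2, -0.18 for Gpx4, -0.12 for Gpx7 and -0.12 for Gpx8. Without control DLP 5 and control DLP 2 these were 0.19 for Gpx2, -0.42 for Gpx4, -0.18 for Gpx7 and 0.18 for Gpx8, so the value for Gpx4 was then nearly as far from 0 as that for Gpx1. Among the remaining pairs the values over 19 arrays ran from -0.47 for Gpx4 and Gpx8 to 0.38 for Gpx4 and Gpx7. Without control DLP 5 and control DLP 2, r was 0.47 for Gpx1 and Gpx8, as for Gpx1 and Gpx3, and 0.41 for Gpx1 and Gpx7. Spearman rho over 19 arrays was 0.48 for Gpx1 and Gpx7, beside 0.49 for Gpx1 and Gpx3. A correlation of this size with Gpx1 was thus not particular to Gpx3. The correlation of Gpx3 with Gpx1 ranked at place 69 among the 11727 other genes.

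**Figure D5:**
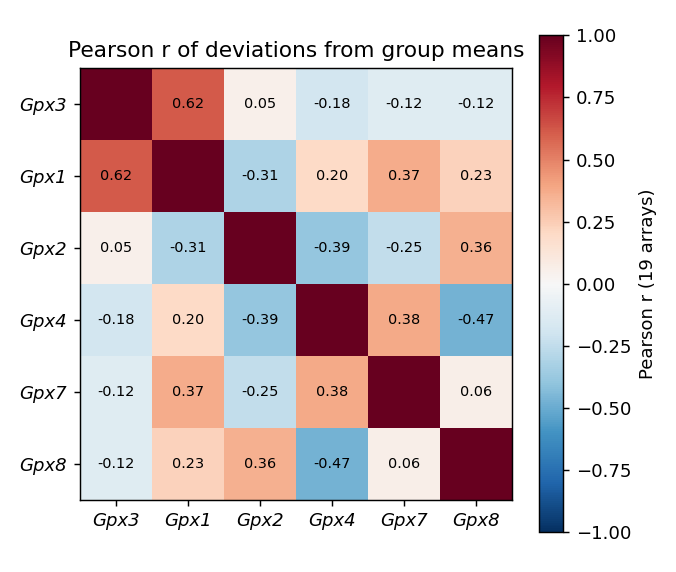
Pearson r between members over the 19 deviations from group means, from -1 (blue) to 1 (red). The highest value is 0.62 for Gpx1 and Gpx3 and the lowest is -0.47 for Gpx4 and Gpx8.

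The genes most like Gpx3 were ranked by Pearson r over 19 arrays, in a search of 11727 genes, and r alone is reported. Over the levels themselves they were Nepro at 0.71, Amn1 at 0.67, the heparin-binding growth factor Mdk at 0.67, the collagen gene Col5a3 at 0.66, the cytosolic chaperone Hsp90aa1 at 0.66 and Dlc1 at 0.66. None of these 6 passed limma's test by diet in either lobe, with adjusted p-values from 0.14 to 1.00. Over deviations from the group means they were Bloc1s2 at 0.83, Taf8 at 0.79, Ecpas at 0.79, Mcrip1 at 0.75, Csk at 0.75 and Th at 0.73. For Bloc1s2, a subunit of a complex for lysosome-related organelles, r was 0.76 without control DLP 5 and control DLP 2. For Th, tyrosine hydroxylase of noradrenergic nerves, it was 0.53.

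By diet, 1 gene of the lists around glutathione passed the test, Mthfd1 in VP, where 1.11% of all genes did, and 0 passed in DLP, where no gene of the 11728 did. Of the 18 listed for glutathione synthesis and recycling, 14 were tested and 0 passed in either lobe, with a median difference of 0.03 in DLP and in VP. The smallest p in VP belonged to Chac2, which degrades glutathione, at -0.32 ± 0.10 (SE) with limma's adjusted p = 0.12. Of 9 tested genes of NADPH supply, Mthfd1, which makes NADPH in folate metabolism, was higher in VP by 0.34 ± 0.08 (SE) with limma's adjusted p = 0.040. Its levels ran from 4.37 to 4.78 in HFD VP and from 4.07 to 4.38 in control VP. That call held when control VP 3 or 4, HFD VP 3, or array 2 of HFD DLP was left out and was lost in the other 15 of 19 fits with an array left out, with limma's adjusted p-values up to 0.084. It was also lost under 6 other settings, among them the mean of its probe sets, where the difference was 0.18 with limma's adjusted p = 0.17, and VP fitted alone, with limma's adjusted p = 0.27. In DLP 0 of the 9 passed.

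The selenocysteine list had 11 of 16 genes tested and 0 passed by diet, with a median of 0.02 in DLP and 0.17 in VP. The list of partners of Gpx7 and Gpx8 in oxidative folding had all 12 tested and 0 passed, with a median of -0.12 in DLP and 0.02 in VP. Its smallest p in VP belonged to Prdx4, a peroxiredoxin of the same compartment, at -0.37 ± 0.12 (SE) with limma's adjusted p = 0.14. In DLP 2 of the 12 differences were positive, against 6 of 12 in VP. The smallest p in DLP belonged to Qsox1, at -0.46 ± 0.15 (SE) with limma's adjusted p = 0.74, and Hspa5 was at -0.65 ± 0.25 (SE) with limma's adjusted p = 0.82. The ferroptosis list had 13 of 16 genes tested and 0 passed, with a median of -0.01 in DLP and 0.10 in VP. Lpcat3, which places polyunsaturated chains in phospholipids, had the smallest p in VP, at 0.42 ± 0.12 (SE) with limma's adjusted p = 0.085, and Acsl4, which activates arachidonate, differed by -0.41 ± 0.14 (SE) with an adjusted p of 0.16.

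Between the lobes many genes of these lists differed on the control diet, when 55% of all genes passed. In glutathione synthesis and recycling 9 of 14 (64.3%) passed, 5 higher and 4 lower in DLP, with Gss, glutathione synthetase, higher by 1.28 ± 0.14 (SE) and Slc3a2, the heavy chain of the cystine transporter, by 1.32 ± 0.10 (SE). Chac1, which degrades glutathione, was higher by 1.68 ± 0.23 (SE), while Anpep, an aminopeptidase, was at -2.12 ± 0.14 (SE). In NADPH supply 5 of 9 (55.6%) passed, with Nnt, the mitochondrial transhydrogenase, at -2.37 ± 0.13 (SE) and malic enzyme Me1 at 1.52 ± 0.24 (SE). Limma's adjusted p-values of these 6 genes were at most 1.9e-05. These are RNA levels, and the activity of the enzymes was not measured.

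In the selenium list 7 of 11 (63.6%) passed, with Selenop, the secreted selenium carrier, at -1.40 ± 0.09 (SE) and limma's adjusted p = 9.6e-11. Selenop averaged 7.41 ± 0.23 (SD, n = 5) in control DLP and 8.81 ± 0.07 (SD, n = 5) in control VP, and on HFD its lobe difference was -1.68 ± 0.10 (SE). Eefsec, the elongation factor for selenocysteine, was higher in DLP by 0.70 ± 0.10 (SE) with limma's adjusted p = 6.4e-06. In the oxidative folding list 8 of 12 (66.7%) passed, 5 higher and 3 lower. Ero1b, an oxidase of protein disulfide isomerase, was lower in DLP at -1.72 ± 0.15 (SE), as Gpx8 was, while Pdia4, a protein disulfide isomerase, was higher by 1.46 ± 0.13 (SE), with limma's adjusted p = 1.1e-08 for each. In the ferroptosis list 5 of 13 (38.5%) passed, with Alox12, a lipoxygenase, higher in DLP by 2.03 ± 0.13 (SE) and the ferritin chain Fth1 by 0.95 ± 0.10 (SE), both with limma's adjusted p at most 1.2e-07. On HFD 7 of 13 (53.8%) of the ferroptosis list passed between the lobes, when 52.9% of all genes did. In the other lists the share on HFD ran from 57.1% to 66.7%.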

How the data were processed

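RNA of mouse prostate lobes was measured on a 3′ expression array with 1 sample per array. MAS5 is named per the submitters' processing notes. The deposited values are logarithms, read here as log10, from 0 to 3.99, and their sorted values were identical on 19 arrays, by a step for which the sources used here give no method. The base was inferred from hybridization controls, whose successive steps were 0.535, 0.735 and 0.963, against nominal log10 steps of 0.523, 0.699 and 0.602. The last step was well above its nominal value, so the base is uncertain, and every fold given here rests on it. An offset of 1 in the logarithm was assumed, and values were converted to log2. The number of arrays limits the precision.

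Probe sets with 1 symbol (34945 of 45101) were named from the platform annotation, with symbols updated through the GRCm38.p6 RefSeq table, and 64 control probe sets were left out. Each of the 11728 genes past the filter had its probe set of highest mean. Group means were fitted to all 19 arrays with limma 3.58.1 in R 4.3.3 (mean-dependent prior), with Benjamini-Hochberg adjustment over all genes at 0.05, two-sided. The code was checked on simulated data. Exact permutation tests used SciPy 1.17.1. Members and lists were chosen with earlier results of these data known. Named genes were all members, up to 4 called list members or otherwise 2 with the smallest p per contrast, and the 6 genes most correlated with Gpx3 by each measure. A planned test of members that miss the filter did not apply. Alternatives covered offset, filter, probe set choice, prior, weights, blocks, loess, threshold and left-out arrays.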

Additional observations from a re-analysis of the deposited data

Results flagged for a closer look

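In 3 of the 24 sets of 4 or 5 arrays tested for a lone outlying array (6 genes in 4 groups), 1 array lay far from the others relative to the range of its group, and chance gives about 1 in 20 such groups. Gpx2 was at 3.16 on HFD DLP 1, while the other 3 arrays of that group lay between 3.61 and 3.68. Gpx4 was at 7.30 on control VP 4, while the other 4 lay between 7.73 and 7.86. Gpx8 was at 5.67 on HFD VP 3, while the other 4 lay between 5.40 and 5.44. Control VP 4 and HFD VP 3 are also the arrays left out together in a fit given above, and each had the highest Gpx3 level of its group. No diet difference of the 5 members other than Gpx3 was told apart between the lobes by limma's test.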

How the results depend on the processing

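Of 946 differences of the 6 members recomputed under other settings, 913 kept their direction and, where tested, their call. Another 24 turned sign while uncalled, and 9 lost the call, all of them Gpx7 between the lobes on the control diet. Many of the 913 had no way to turn sign, so this count overstates how stable the directions were. Leaving out an array from a group outside the contrast does not move the difference, and neither does a change of filter or prior. Gpx3 by diet was not tested, so it had no call to keep. Gpx3 by diet ran from -1.58 to -1.36 in DLP and from -1.14 to -0.96 in VP over the planned settings, and with an array left out from -1.77 to -1.35 and from -1.28 to -0.99. Gpx8 between the lobes stayed called in every fit, from -2.09 to -1.30 on the control diet and from -1.77 to -1.07 on HFD over the settings, the smallest sizes with an offset of 16, and with an array left out from -2.12 to -2.04 and from -1.83 to -1.69. Gpx7 between the lobes on the control diet was 0.27 with array weights, 0.30 with control arrays fitted alone, 0.24 with cyclic loess and 0.24 without control VP 4 and HFD VP 3, and 0.24 to 0.36 with an array left out; on HFD that range was 0.08 to 0.22.

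The count of genes called by diet in VP was 130, and 78 with no filter, 209 with the filter at the 75th percentile, 47 with the mean of probe sets, 83 with a constant prior, 47 with array weights, 0 with VP fitted alone, 20 with 1 weight per lobe and 321 at a threshold of 0.10. It ran from 70 to 148 with an array left out, moving by over 1.5 times to between 70 and 86 when HFD VP 1, 4 or 5, HFD DLP 1 or 4, or control VP 2, 3 or 5 was left out. In DLP the count was 0, and 4 with an offset of 16, 1 with no filter, 5 with array weights, 6 with 1 weight per lobe and 2 at 0.10, and 0 to 2 with an array left out. For the difference of diet effects it was 1, and 0 with the mean of probe sets or the number as a replicate block, 3 without control VP 4 and HFD VP 3, and 0 to 2 with an array left out. Between the lobes it ran from 6099 to 6584 on the control diet and from 5640 to 6411 on HFD with an array left out, and from 4697 to 7206 and from 4643 to 6965 over the other settings. With the filter at the 75th percentile Gpx7 was not tested and has no value.

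Signs turned as follows, all uncalled. The mean of probe sets gave 0.015 for the difference of Gpx4's diet effects, 0.26 for Gpx4 between lobes on HFD and -0.015 for Pstk by diet in VP. Array weights gave 0.0041 for Gpx2 by diet in DLP, -0.0028 for Gpx4 between lobes on the control diet and 0.031 for Gpx3 between lobes on HFD. Without control VP 4 and HFD VP 3 the Gpx4 lobe difference was -0.042 on the control diet and that of Gpx3 on HFD was 0.090. With the replicate number as a block, Gpx7 by diet in DLP was 0.017, Gpx2 between lobes on HFD -0.019 and Gpx3 there 0.042; the block ended no call of a member, but Mthfd1 by diet in VP missed the threshold, with an adjusted p of 0.071. Deviations of same-numbered arrays had r from -0.0658 to 0.189 between the lobes on the control diet and from 0.00173 to 0.146 on HFD. With diet and number taken as 1 mouse the correlation was 0.0443. The labels do not give the mouse, and the main fit did not take the numbers as pairs. Between the diets, where the mice differ, r ran from -0.105 to 0.459 in VP and from -0.154 to 0.169 in DLP. With an array left out, Gpx2 by diet in DLP ran from -0.11 to 0.20, Gpx7 there from -0.091 to 0.049, Gpx1 between lobes on HFD from -0.065 to 0.012, Gpx2 there from -0.055 to 0.33, Gpx3 there from -0.20 to 0.090, and Gpx4 on the control diet from -0.042 to 0.10. The causes were not tested.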
